A study of Arabidopsis thaliana with 10 samples.

Results

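The genes described here encode the folding chaperones of the endoplasmic reticulum (ER) of Arabidopsis thaliana, the compartment in which secreted and membrane proteins fold. They are the HSP70 chaperones BIP1, BIP2 and BIP3, the ER member of the HSP90 family SHD (HSP90.7), the protein disulfide isomerases PDIL1-1, PDIL1-2 and PDIL2-1, the membrane lectin CNX1 (calnexin) and the soluble lectins CRT1A and CRT1B (calreticulins). They were chosen by locus, with earlier results of these data known. To be measured here, a gene had to be listed in the deposited tables of transcript levels, which the authors' filter on low values decides. Of the 10 loci, 9 had a row in both tables and BIP3 (AT1G09080) had a row in neither, so BIP3 is not analysed here. The tables list 18411 genes in all, 17371 of them in the first experiment, 17433 in the second and 16393 in both.

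In the ER, BiP binds unfolded polypeptides as they enter and the HSP90 chaperone finishes a subset of its clients. The disulfide isomerases form and rearrange disulfide bonds. Calnexin and calreticulin hold glycoproteins until their sugar chains mark them as folded. When unfolded proteins build up, the sensor IRE1 and the membrane-tethered bZIP factors raise transcription of most of these genes, a program known as the unfolded protein response (UPR).

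The libraries were polyA RNA from whole Col-0 seedlings of lines named GFP, DIG1 and DIG2, all of them treated with dexamethasone, a synthetic glucocorticoid widely used to switch on transgenes. Of the groups, 3 (GFP, DIG1, DIG2) consisted of 3-day-old seedlings kept in the dark and given 10 µM dexamethasone for the last 4 h, still in the dark. The remaining groups (GFP, DIG1) consisted of 10-day-old light-grown seedlings that had spent all 10 d on plates with dexamethasone, at 500 nM per the treatment field (the growth field prints another unit). Each of the 5 groups had 2 libraries. The labels give neither the promoter behind the transgenes, nor the number of independent lines, nor whether plants were pooled, and no group went without dexamethasone, so a difference between lines that existed before treatment cannot be told apart from one that followed it. The labels do not say whether replicates came from separate cultures. The p-values therefore reflect the spread among these libraries and nothing else, and that spread may be technical.

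The locus known as DIG1, AT3G48510, stood at 1716 and 1438 RPKM (reads scaled to gene length and to library size) in the dark-grown DIG1 libraries against 0.551 and 1.43 in GFP, and at 1891 and 1775 against 1.42 and 0.935 in the light; the titles of the DIG1 libraries print another locus, AT3G45810. The DIG2 locus AT5G50360 stood at 4879 and 2685 RPKM in DIG2 and at 0.876 and 0.768 in GFP. Whole reads recovered from the RPKM values numbered from 9922436 to 15742609 per library at 4 h and from 12250010 to 18283509 at 10 d. Of the tissue marker lists, the summed level of the 3 green leaf markers was 5849 to 6799 RPKM in dark-grown GFP, 3100 to 5500 in DIG1 and 4585 to 4687 in DIG2, and 21983 to 23859 in light-grown GFP against 8326 to 10902 in DIG1. The etiolation markers summed to 2465 to 2680 RPKM in dark-grown GFP (2 of 2 measured), 515.6 to 579.5 in DIG1 and 739.6 to 974.6 in DIG2, and to 34.7 to 65.6 in light-grown GFP (1 of 2 measured) against 10.4 to 14.3 in DIG1. The root markers summed to 57.2 to 61.7 RPKM in dark-grown GFP, 63.2 to 68.1 in DIG1 and 66.6 to 71.1 in DIG2 (3 of 5 measured), and to 42.1 to 48.5 against 36.0 to 37.1 in the light (4 of 5). The guard cell markers summed to 15.7 to 16.2, 6.46 to 9.18 and 7.68 to 8.72 RPKM in the dark (2 of 3), and to 25.6 to 26.5 against 21.8 to 22.7 in the light (3 of 3). The members of this list differed. In the dark, the log2 changes were −1.21 in DIG1 and −1.32 in DIG2 for KAT1, but −0.40 and −0.05 for FAMA. In the light, KAT1 was at −1.73 and SLAC1 at −0.89, while FAMA was higher, at 0.33 (limma adjusted p = 0.035). The green leaf sums are mostly RBCS1A, at −0.53 in dark-grown DIG1, −0.31 in DIG2 and −0.89 in the light, with no limma adjusted p under 0.05. In the same order LHCB2.1 was at −1.38, −1.81 and −2.80 and LHCB1.1 at −0.82, −1.17 and −2.06. Of the root markers in the light, PIN2 was at −0.99, SHR at −0.59 and COBL9 at −1.23, while SCR was at −0.01. Markers of each list were detected in both tables, and the part of these shifts in the results below was not tested. In whole seedlings, fewer cells of a type and less RNA per cell cannot be told apart.

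All the sequences shown here were read from the TAIR10.1 genome, on the strand of the gene, because the chaperone genes share known promoter elements of the UPR. Those elements are the ER stress response element ERSE (CCAAT and CACG with 10 free bases between them), its shorter form ERSE-II (ATTGG and CCACG with 1 free base between them) and the UPR element with the core TGACGTG; the G-box CACGTG was searched as well. In the 500 genomic bases before the start codon, on either strand, ERSE was found in 7 of the 10 genes (BIP3, SHD, PDIL1-1, PDIL1-2, CNX1, CRT1A and CRT1B), against 1.07% of 27437 protein-coding genes. ERSE-II was found in the other 2 HSP70 genes, BIP1 and BIP2, against 0.0984% of genes. The UPR core was found in 8 of 10 against 4.32%, and it was the single UPR element of PDIL2-1, which had neither form of ERSE. The G-box was found in 6 of 10 against 9.34%. Among 67 other listed genes of ER folding and quality control, ERSE was found in 10, ERSE-II in 0, the UPR core in 9 and the G-box in 10. The matches overlap one another, since CACG ends ERSE and opens the G-box. These windows reach past the annotated gene start and can include transcribed leader sequence. Inside the annotated gene lay the ERSE of CNX1 and CRT1B, 1 ERSE of PDIL1-1 and the ERSE-II of BIP1 and BIP2. So did the UPR cores of BIP1, BIP2, PDIL2-1, CNX1 and CRT1B and the G-boxes of PDIL1-1 and CRT1B. The window length was chosen after a search of the 300 bases before the annotated gene starts. That search had found ERSE in 5 of 10 genes against 0.747% and the UPR core in 3 against 3.16%. It had found the G-box in 4 against 7.09% and ERSE-II in 0 against 0.0656%. The shorter windows of SHD, CNX1 and CRT1A overlap a neighbouring gene. A match is a description of these letters and not a measured binding site.

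The ERSE matches of the measured genes follow, with the match in capitals and 5 flanking bases in lower case. PDIL1-1 held 2, of which the lower one lies inside the annotated gene, as do those of CNX1 and CRT1B.
SHD: ttgctCCAATACAAAACTACCACGtggct
PDIL1-1: gatatCGTGACGCTTGTACATTGGtgcgg
PDIL1-1: aatacCCAATTAGAGATAGCCACGtggat
PDIL1-2: tttatCCAATGAAAACTCTCCACGtgtat
CNX1: aatgaCGTGGCCTGTTATGATTGGttagc
CRT1A: tctggCGTGTATTTAACTAATTGGttaac
CRT1B: tctgaCGTGTCGGTTACCTATTGGattac

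The ERSE-II matches of the BiP genes were identical over the match and its flanks, which take in the UPR core.
BIP1: agataATTGGTCCACGtcatc
BIP2: agataATTGGTCCACGtcatc

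For the disulfide isomerases that were lower in DIG1 than in GFP at 10 d, the 300 bases before the annotated gene start are shown whole, with matches to any of the 4 elements in capitals. PDIL1-1 lies on the plus strand of chromosome 1 (window chr1:7645310-7645609) and PDIL1-2 on the plus strand of the same chromosome (window chr1:29126348-29126647).
PDIL1-1: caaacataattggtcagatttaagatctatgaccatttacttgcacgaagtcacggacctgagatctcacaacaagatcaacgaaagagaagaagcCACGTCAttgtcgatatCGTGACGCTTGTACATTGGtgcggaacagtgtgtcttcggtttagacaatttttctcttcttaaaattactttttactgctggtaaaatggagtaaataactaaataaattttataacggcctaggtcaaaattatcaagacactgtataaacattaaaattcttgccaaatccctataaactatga
PDIL1-2: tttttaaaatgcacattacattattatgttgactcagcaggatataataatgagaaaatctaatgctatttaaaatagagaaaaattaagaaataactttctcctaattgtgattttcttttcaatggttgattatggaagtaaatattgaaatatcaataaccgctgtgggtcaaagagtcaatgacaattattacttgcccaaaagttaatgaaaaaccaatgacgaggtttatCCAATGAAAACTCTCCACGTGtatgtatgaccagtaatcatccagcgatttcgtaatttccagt

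In PDIL1-1 the match to the UPR core lies 204 to 198 bases before the gene start and the ERSE match 187 to 169 bases before it, both on the opposite strand. In PDIL1-2 the ERSE match lies 64 to 46 bases before the gene start and runs into a G-box at 49 to 44.

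The coding sequences of BIP1 and BIP2 are 95.8% identical, and 22.9% of the 50-base windows of the BIP1 transcript occur unchanged in BIP2. How the authors' counting treated reads that match both genes is not given in the sources used here, so the split between BIP1 and BIP2 is uncertain, and so is their sum if such reads were left out. CRT1A and CRT1B are 83.6% identical and PDIL1-1 and PDIL1-2 81.2%, with 0.166% and 0% of windows shared. The annotated span of PDIL2-1 shares 97 bases with AT2G47480 on the opposite strand, and the spans of the other 9 genes overlap no annotated gene.

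In dark-grown GFP seedlings all 9 measured genes were measured well above the authors' filter on low values. SHD stood highest on this per-length scale, at 126.8 and 138.0 RPKM, with CNX1 beside it at 119.4 and 138.6 RPKM, and those ranges overlapped. CRT1A, CRT1B, BIP1 and PDIL2-1 followed, with means of 104.8, 95.6, 93.7 and 92.3 RPKM, and each overlapped its neighbour in that order. BIP2 at 77.8 and 84.7, PDIL1-1 at 67.0 and 70.9 and PDIL1-2 at 19.9 and 20.2 RPKM were each separate from the next. By group mean, SHD was the highest and PDIL1-2 the lowest of the 9 in all 5 groups. SHD overlapped the next gene in dark-grown GFP (CNX1) and in light-grown GFP and DIG1 (CRT1A in both), and in GFP replicate 2 CNX1 was above it in both tables, at 138.6 against 138.0 and 161.6 against 160.3 RPKM. PDIL1-2 was separate from the next gene in every group. CNX1 went from the second place in dark-grown GFP to the fifth in DIG2, where it overlapped CRT1B above it and PDIL1-1 below it, and PDIL2-1 went from the sixth place to the third, where it overlapped CRT1A above it. Each of the 9 had at least 246 recovered reads in every library at 4 h and 469 at 10 d.

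After 4 h of dexamethasone in the dark, DIG2 seedlings had lower transcript levels of all 9 measured chaperone genes than GFP seedlings, and DIG1 seedlings of 5. The log2 changes were furthest below 0 for BIP2, CNX1 and BIP1 in both lines and nearest to it for SHD and PDIL2-1. The summed level of the 9 genes was 775.3 and 860.8 RPKM in GFP, 569.6 and 494.7 in DIG1 and 372.0 and 507.5 in DIG2. Tests were made with limma on log2(RPKM + 0.5), adjusted over all genes of the table, and a gene is said to have risen or fallen only where the adjusted p is under 0.05.

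**Figure D1:**
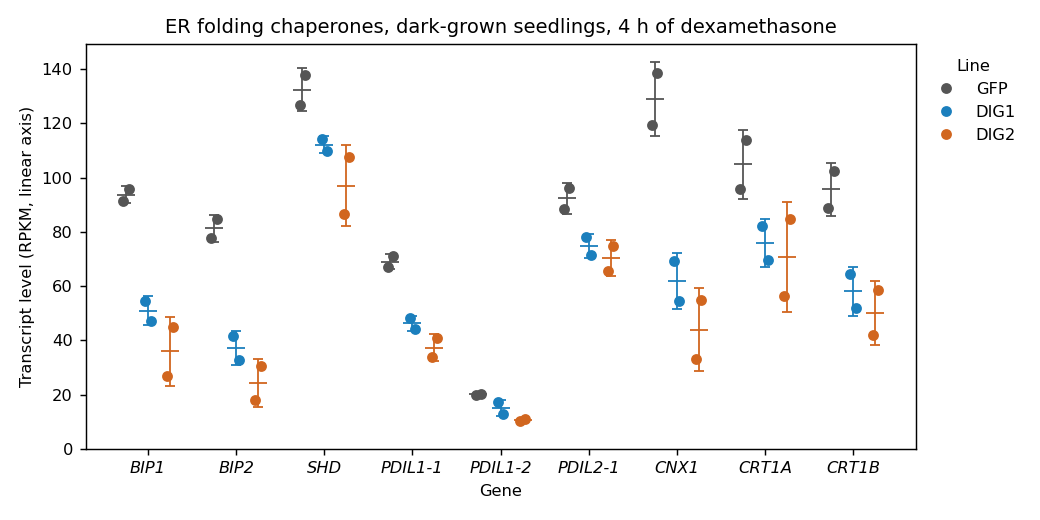
Transcript level (RPKM, linear axis from 0) of the 9 measured chaperone genes in dark-grown seedlings after 4 h of dexamethasone. Points are the 2 libraries of each line, bars the mean ± SD; both libraries of DIG1 and of DIG2 lie below both GFP libraries for each gene.

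BiP, the HSP70 chaperone of the ER, was lower in both lines, from both of its measured genes (gene positions here and below are from TAIR10.1). BIP2 (AT5G42020, chromosome 5, 16807342 to 16810693) read 77.8 and 84.7 RPKM in GFP, 41.5 and 32.7 in DIG1 and 18.0 and 30.4 in DIG2. Every library of the DIG lines was below both GFP libraries, and both DIG2 libraries were below both DIG1 libraries. The log2 change of BIP2 was −1.13 ± 0.20 (SE) in DIG1 (limma adjusted p = 0.0081) and −1.77 ± 0.20 in DIG2 (limma adjusted p = 0.00061). BIP1 (AT5G28540, chromosome 5, 10540123 to 10543558) read 91.5 and 95.9 RPKM in GFP, 54.6 and 47.3 in DIG1 and 27.0 and 44.8 in DIG2, again with no overlap between any groups. Its log2 change was −0.88 ± 0.19 in DIG1 (limma adjusted p = 0.019) and −1.42 ± 0.19 in DIG2 (limma adjusted p = 0.0013). The sum of both genes was 169.3 and 180.6 RPKM in GFP, 96.2 and 79.9 in DIG1 and 45.0 and 75.2 in DIG2. As a share of the 9 genes' summed RPKM, the BiP pair made up 21.8% and 21.0% in GFP, 16.9% and 16.2% in DIG1 and 12.1% and 14.8% in DIG2. The BIP2 level dropped further than the BIP1 level, a difference that was not tested: the ratio of BIP1 to BIP2 was 1.18 and 1.13 in GFP, 1.32 and 1.45 in DIG1 and 1.50 and 1.47 in DIG2.

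The lectins of the glycoprotein cycle differed among themselves. CNX1 (AT5G61790, chromosome 5, 24827063 to 24829900) read 119.4 and 138.6 RPKM in GFP, 69.3 and 54.6 in DIG1 and 33.0 and 54.9 in DIG2. The GFP libraries stood apart from all others, while the lower DIG1 library and the higher DIG2 library nearly coincided. The log2 change of CNX1 was −1.06 ± 0.20 in DIG1 (limma adjusted p = 0.011) and −1.58 ± 0.20 in DIG2 (limma adjusted p = 0.0011). CRT1B (AT1G09210, chromosome 1, 2972638 to 2977002) read 88.8 and 102.5 RPKM in GFP, 64.5 and 51.8 in DIG1 and 41.8 and 58.5 in DIG2, and fell by 0.72 on the log2 scale in DIG1 (limma adjusted p = 0.023) and by 0.94 in DIG2 (limma adjusted p = 0.0049). Its ranges in DIG1 and DIG2 overlapped. CRT1A (AT1G56340, chromosome 1, 21089565 to 21092709), the other calreticulin, read 95.8 and 113.8 RPKM in GFP, 82.0 and 69.7 in DIG1 and 56.4 and 84.9 in DIG2. Its log2 change was −0.46 ± 0.17 in DIG1, short of the threshold (limma adjusted p = 0.15), and −0.59 ± 0.17 in DIG2, just under it (limma adjusted p = 0.048). That last call was lost when each library was centred on its own median (limma adjusted p = 0.065).

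The disulfide isomerases PDIL1-1, PDIL1-2 and PDIL2-1 all fell in DIG2, and PDIL1-1 alone of them fell in DIG1. PDIL1-1 (AT1G21750, chromosome 1, 7645610 to 7648855) read 67.0 and 70.9 RPKM in GFP, 48.2 and 44.3 in DIG1 and 33.7 and 40.8 in DIG2, with the 3 groups fully separate. It fell by 0.57 ± 0.11 on the log2 scale in DIG1 (limma adjusted p = 0.011) and by 0.89 ± 0.11 in DIG2 (limma adjusted p = 0.00092). PDIL1-2 (AT1G77510, chromosome 1, 29126648 to 29129700) read 19.9 and 20.2 RPKM in GFP, 17.2 and 13.0 in DIG1 and 10.1 and 10.9 in DIG2, and the DIG1 libraries were the most spread. Its log2 change was −0.41 ± 0.14 in DIG1 (limma adjusted p = 0.10) and −0.90 ± 0.14 in DIG2 (limma adjusted p = 0.0028). PDIL2-1 (AT2G47470, chromosome 2, 19481254 to 19484015) read 88.3 and 96.2 RPKM in GFP, 78.0 and 71.6 in DIG1 and 65.5 and 74.9 in DIG2. Its log2 change was −0.30 ± 0.10 in DIG1 (limma adjusted p = 0.11) and −0.39 ± 0.10 in DIG2 (limma adjusted p = 0.031).

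SHD (AT4G24190, chromosome 4, 12551552 to 12556058), the HSP90 chaperone, had the change nearest to 0 in DIG1. It read 126.8 and 138.0 RPKM in GFP, 114.3 and 109.8 in DIG1 and 86.4 and 107.6 in DIG2, so the line means were 84.6% and 73.3% of the GFP mean, against 45.7% and 29.8% for BIP2. The log2 change of SHD was −0.24 ± 0.12 in DIG1 (limma adjusted p = 0.28) and −0.45 ± 0.12 in DIG2 (limma adjusted p = 0.030).

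Across the list, 5 of 9 fell and 0 rose in DIG1, where 5.54% of all 17371 genes tested fell and 3.01% rose (962 and 522 genes, or 770 and 993 by voom on the recovered reads, and 881 and 539 with each library centred on its median). In DIG2, 9 of 9 fell, where 7.48% of all genes fell and 7.37% rose. The median log2 change of the 9 genes was −0.57 in DIG1 and −0.90 in DIG2, and the median over all genes was 0.00 and −0.01. The libraries did not overlap, with the DIG line lower, for 9 of 9 genes in each line, against 26.5% of all genes in DIG1 and 30.9% in DIG2. Both comparisons use the same GFP libraries. On the authors' deposited table, 6 of the 9 had an FDR under 0.05 in DIG1 (SHD, PDIL2-1 and CRT1A did not) and all 9 in DIG2. The shares over all genes there, in either direction, were 11.2% in DIG1 and 18.8% in DIG2. Calls in both lines, and all 5 in DIG1, depended on single libraries. With 1 library of either compared line left out, the log2 changes of the 9 genes kept their sign. Those of BIP2 then ranged from −1.30 to −0.96 in DIG1 and from −2.14 to −1.40 in DIG2. Those of SHD ranged from −0.30 to −0.18 and from −0.61 to −0.30. Without a variance trend 3 calls remained in DIG1 and 6 in DIG2, where those of SHD, PDIL2-1 and CRT1A were lost.

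Read the other way, all 9 genes had a higher mean in DIG1 than in DIG2, with a median log2 difference of 0.31, and none passed the test of the difference. With limma, 0 of 9 had an adjusted p under 0.05, where 2.36% of all genes did, and 5 of 9 had an unadjusted p under 0.05, where 17.4% of all genes did. The libraries did not overlap, with DIG1 higher, for 5 of 9 genes, against 22.2% of all genes. The differences were widest for BIP2, at 0.64 ± 0.20 (limma adjusted p = 0.14), BIP1, at 0.54 ± 0.19 (limma adjusted p = 0.18), CNX1, at 0.53 ± 0.20 (limma adjusted p = 0.22), and PDIL1-2, at 0.49 ± 0.14 (limma adjusted p = 0.10). They were narrowest for PDIL2-1, at 0.09 ± 0.10, and CRT1A, at 0.13 ± 0.17. The result differed by method and with 1 library left out. When the recovered reads were tested with voom, which changes both the test and the scaling (to the total of reads) and moved the median of all genes to 0.13, 5 genes passed. Centring each library on its median, a change of scaling alone, gave 0, and 3 passed without DIG2 replicate 2 (BIP1, BIP2 and CNX1). By voom 484 of all genes were higher in DIG1 and 225 lower, against 108 and 302 by limma on RPKM. The direction was not particular to the ER chaperones. Of 15 HSP70 and HSP90 genes of other compartments, 14 had a log2 difference above 0, with a median of 0.37. Their libraries did not overlap, with DIG1 higher, for 8 of 15, and 0 passed by limma and 7 by voom.

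**Figure D2:**
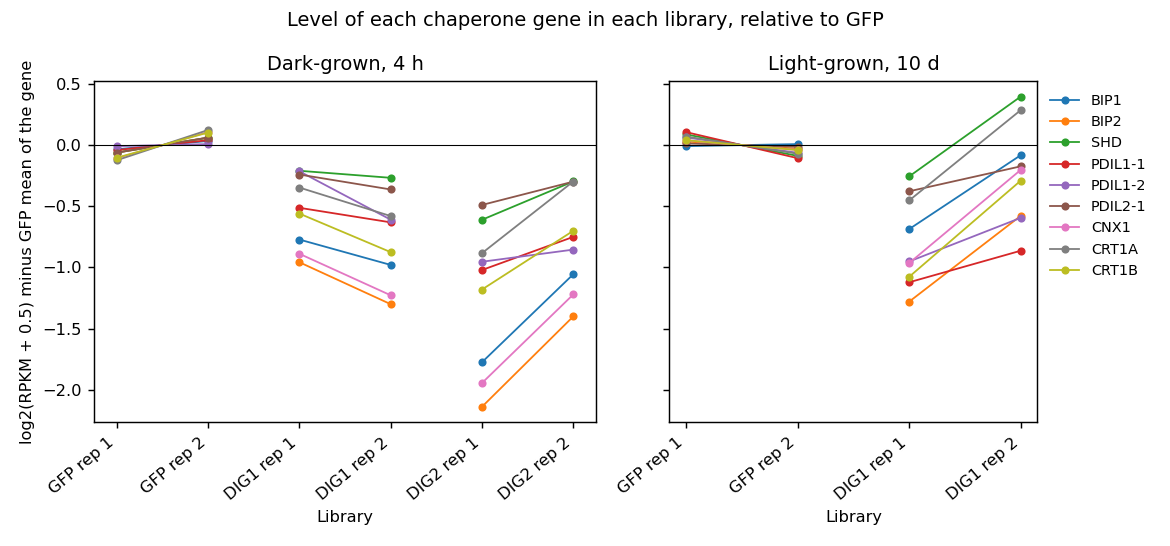
Level of each measured chaperone gene in each library, as log2(RPKM + 0.5) minus the mean of the GFP libraries of the same table, with a line joining the 2 replicates of a group. The lines of 1 group run in the same direction for all 9 genes, except in light-grown GFP, where BIP1 runs against the other 8.

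The 9 genes also moved together between replicates of one group, a pattern noticed in these values and not tested. In dark-grown GFP and in DIG2, replicate 2 was higher than replicate 1 for 9 of 9 genes, by a median of 0.12 and 0.48 on the log2 scale. In dark-grown DIG1 it was lower for 9 of 9, by a median log2 difference of −0.23. In light-grown DIG1 it was higher for 9 of 9, by a median of 0.65, and in light-grown GFP it was lower for 8 of 9. Over all genes of the tables, replicate 2 was higher for 49.6% to 51.5% of genes in each of these groups, a balance that scaling to library size favours. The 9 genes are therefore not independent readings of a condition. Centred within each table, each gene's levels over the 10 libraries correlated with the mean profile of the list that contains it at a Pearson r between 0.81 (SHD) and 0.99 (CNX1), a description over libraries that share tables and groups.

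In light-grown seedlings after 10 d, 3 of the 9 genes were lower in DIG1 than in GFP, BIP2, PDIL1-1 and PDIL1-2, and none was higher. At this stage 31.2% of all 17433 genes tested were lower and 31.9% higher in DIG1 (5439 and 5560 genes, or 4633 and 7278 by voom), so a count of 3 of 9 is close to the background. The summed level of the 9 genes was 1114 and 1043 RPKM in GFP and 666.0 and 1029 in DIG1, so the second DIG1 library nearly reached GFP.

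**Figure D3:**
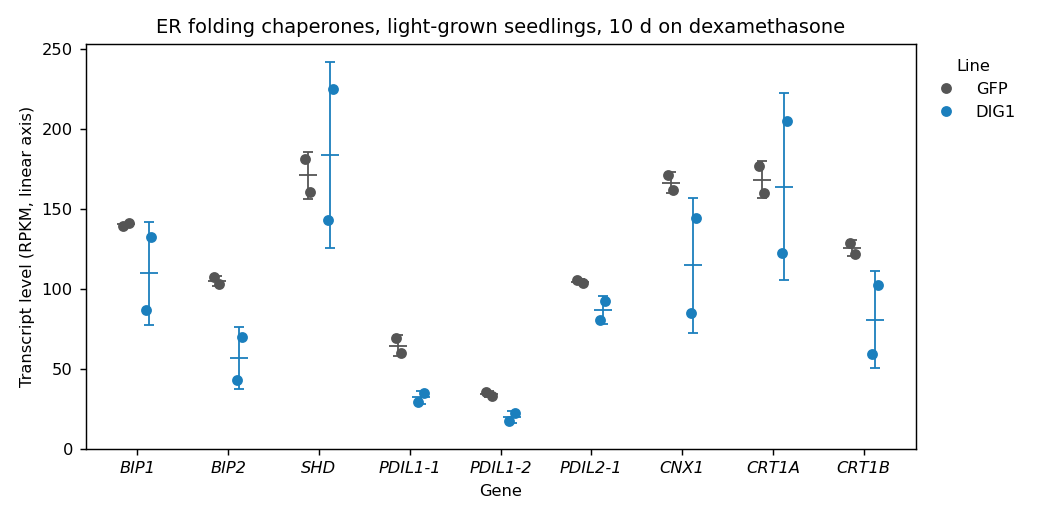
Transcript level (RPKM, linear axis from 0) of the 9 measured chaperone genes in light-grown seedlings after 10 d on dexamethasone. Points are the 2 libraries of each line, bars the mean ± SD; the DIG1 libraries are widely spread for SHD, CRT1A, CNX1 and CRT1B, and SHD and CRT1A overlap GFP.

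PDIL1-1 fell furthest at 10 d. It read 69.2 and 59.7 RPKM in GFP and 29.3 and 35.1 in DIG1, a clear gap, and its log2 change was −0.99 ± 0.13 (limma adjusted p = 0.0024). PDIL1-2 read 35.8 and 32.8 RPKM in GFP and 17.5 and 22.5 in DIG1, also without overlap, with a log2 change of −0.77 ± 0.15 (limma adjusted p = 0.0074). The remaining isomerase, PDIL2-1, read 105.5 and 103.5 RPKM in GFP and 80.3 and 92.6 in DIG1, and its change of −0.28 ± 0.10 did not pass (limma adjusted p = 0.065).

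Of the HSP70 genes BIP2 passed and BIP1 did not. BIP2 read 107.1 and 102.8 RPKM in GFP and 42.9 and 70.1 in DIG1, with a log2 change of −0.93 ± 0.23 (limma adjusted p = 0.019). BIP1 read 139.4 and 141.0 RPKM in GFP and 86.9 and 132.4 in DIG1, so 1 DIG1 library lay just below GFP, and its change was −0.38 ± 0.21 (limma adjusted p = 0.16). Their sum was 246.5 and 243.8 RPKM in GFP and 129.8 and 202.5 in DIG1. The ratio of BIP1 to BIP2 was 1.30 and 1.37 in GFP and 2.02 and 1.89 in DIG1, so the DIG line had the higher ratio at this stage as well. With 2 libraries a group this ratio was not tested, and reads shared by the genes enter it.

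The lectins and SHD did not pass at 10 d. CNX1 read 170.8 and 161.6 RPKM in GFP and 84.9 and 144.3 in DIG1, with a log2 change of −0.58 ± 0.25 (limma adjusted p = 0.095). CRT1B read 128.8 and 121.8 RPKM in GFP and 59.1 and 102.4 in DIG1, with a change of −0.68 ± 0.26 (limma adjusted p = 0.067). In both genes the DIG1 libraries lay below GFP but differed widely from each other. CRT1A read 176.3 and 159.9 RPKM in GFP and 122.6 and 204.9 in DIG1, on either side of GFP, with a change of −0.08 ± 0.25 (limma adjusted p = 0.79). SHD read 181.2 and 160.3 RPKM in GFP and 142.6 and 224.6 in DIG1, likewise on either side, with a change of 0.07 ± 0.23 (limma adjusted p = 0.80).

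Across the list at 10 d the median log2 change was −0.58, with 0.05 over all genes. The libraries did not overlap, with DIG1 lower, for 7 of 9 genes, against 40.2% of all genes. On the authors' deposited table, BIP2, PDIL1-1, PDIL1-2, CNX1 (FDR = 0.040) and CRT1B (FDR = 0.013) had an FDR under 0.05. So did 62.6% of all genes there, in either direction, so this number is not above the background. The number that fell depended on single libraries, among them DIG1 replicate 2, in which all 9 genes were higher than in replicate 1. With 1 library left out, the log2 change ranged from −1.28 to −0.58 for BIP2 and from −1.12 to −0.86 for PDIL1-1. For PDIL1-2 it ranged from −0.95 to −0.59. For SHD, from −0.26 to 0.40, and CRT1A, from −0.45 to 0.29, the range crossed 0. The levels at 4 h and 10 d come from tables that were normalized separately, in seedlings of another age, light regime and dose, so the difference between the stages was not tested.

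**Figure D4:**
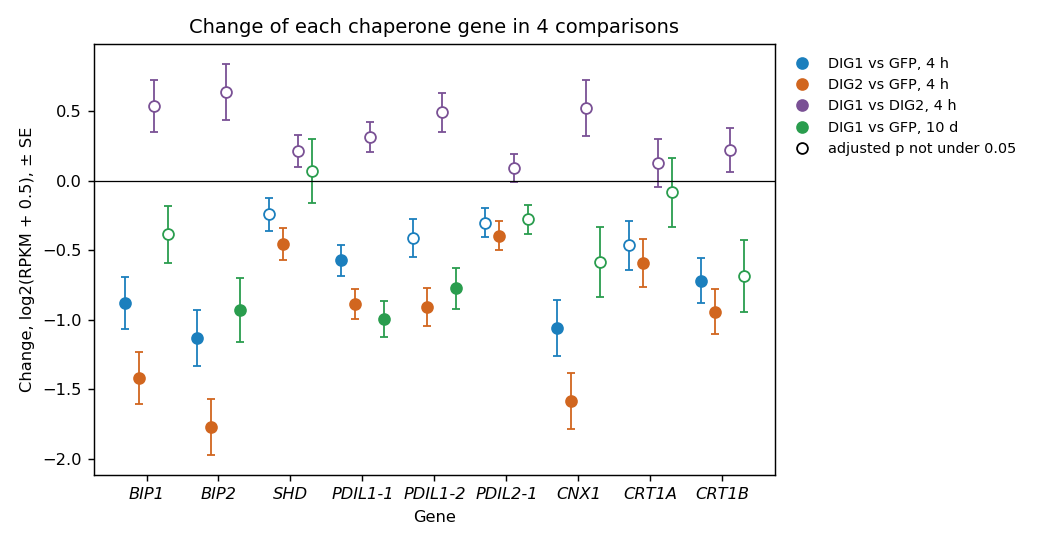
Change of each measured chaperone gene in 4 comparisons, in log2(RPKM + 0.5) ± SE from limma; filled points have an adjusted p under 0.05 over all genes of the table. BIP2 falls in all 3 comparisons with GFP, by 1.13, 1.77 and 0.93, while SHD passes in DIG2 alone.

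The other genes of ER protein folding and quality control were taken from lists of 67 genes, of which 64 were measured in each table. In DIG1 at 4 h, 7 of the 64 fell and 1 rose, with a median log2 change of −0.15. In DIG2, 25 fell and 3 rose, with a median of −0.26, and at 10 d 16 fell and 13 rose, with a median of −0.08. The shares over all genes were 5.54% lower and 3.01% higher, 7.48% and 7.37%, and 31.2% and 31.9%. By voom 6 fell and 2 rose in DIG1 and 28 fell and 3 rose in DIG2 at 4 h. At 10 d 11 fell and 22 rose by voom, by which more of all genes rose than fell as well. The change of balance with the method is therefore not particular to these genes.

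**Figure D5:**
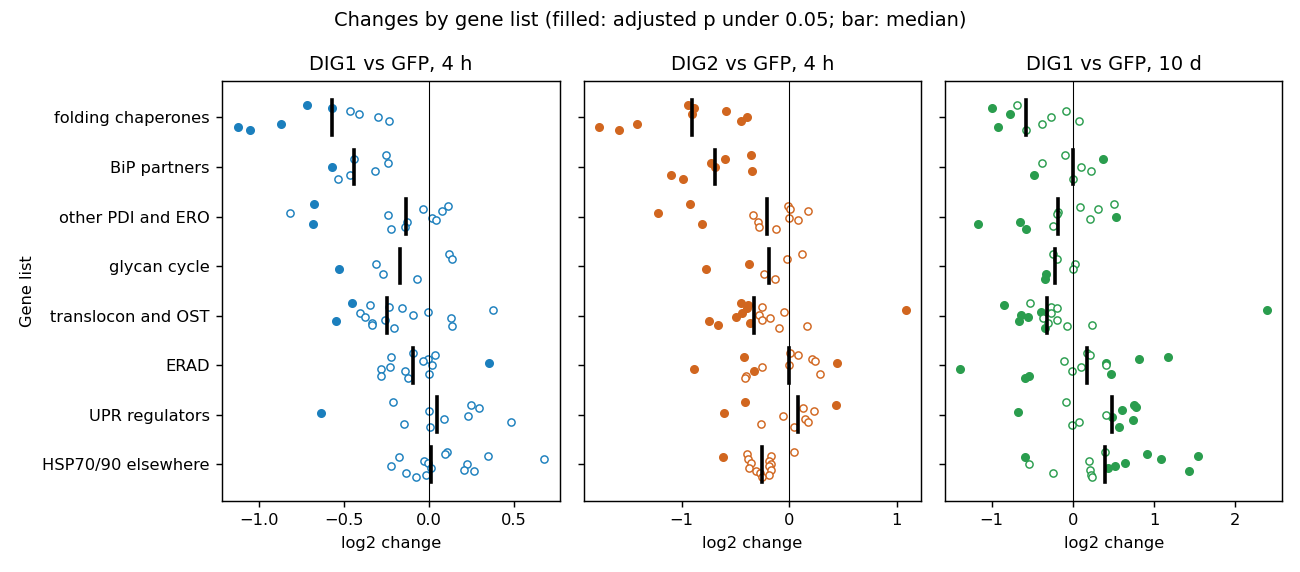
Log2 change of each measured gene by list in 3 comparisons with GFP; filled points have an adjusted p under 0.05 over all genes of the table and black bars are list medians. The folding chaperones and the partners of BiP lie to the left of 0 in both comparisons at 4 h, with medians of −0.57 and −0.44 in DIG1 and −0.90 and −0.69 in DIG2.

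The partners of BiP are J-domain proteins that bring it clients and drive its ATP cycle, with SDF2 and an HSP70 family gene (AT4G16660). In DIG2, 7 of 7 fell, beside 7.48% of all genes. ERDJ2B, a J-protein of the translocation pore, read 11.7 and 12.3 RPKM in GFP, 8.79 and 8.26 in DIG1 and 4.88 and 5.81 in DIG2. It was the partner with the deepest fall, −1.10 ± 0.14 in DIG2 (limma adjusted p = 0.00093), and its level was also higher in DIG1 than in DIG2, by 0.63 ± 0.14 (limma adjusted p = 0.044). P58IPK fell by 0.99, ERDJ3A by 0.72 and ERDJ3B by 0.69 on the log2 scale in DIG2 (limma adjusted p = 0.0068, 0.040 and 0.011). In DIG1, ERDJ3B alone of the 7 passed, at −0.57 ± 0.14 (limma adjusted p = 0.037), beside 5.54% of all genes lower. There 7 of 7 changes were below 0. At 10 d 1 of 7 fell and 1 rose, below the shares of 31.2% and 31.9% over all genes. ERDJ2B fell by 0.48 (limma adjusted p = 0.016), a call not made by voom. SDF2, which works with ERDJ3B in protein quality control, rose by 0.37 (limma adjusted p = 0.045).

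Of 12 further disulfide isomerases and ERO oxidases, which pass oxidising equivalents to the isomerases, 2 fell at 4 h in DIG1 and 3 in DIG2. Over all genes, 5.54% and 7.48% fell. PDIL1-3 read 20.0 and 21.9 RPKM in GFP, 14.1 and 11.7 in DIG1 and 10.5 and 13.0 in DIG2, and fell by 0.68 in DIG1 (limma adjusted p = 0.014) and by 0.81 in DIG2 (limma adjusted p = 0.0048). PDIL2-2 fell by 0.68 and 0.93 (limma adjusted p = 0.033 and 0.0061). ERO1, at 1.64 and 1.70 RPKM in GFP and 0.329 and 0.540 in DIG2, fell by 1.23 on this scale (limma adjusted p = 0.011), which understates the change of so low a gene. At 10 d 3 of 11 measured fell and 1 rose, neither above the shares of 31.2% and 31.9% over all genes. PDIL1-3 fell by 1.17 (limma adjusted p = 0.0012), PDIL5-3 by 0.65 and PDIL1-4 by 0.58 (limma adjusted p = 0.015 and 0.0063). ERO2 rose by 0.53 (limma adjusted p = 0.014). PDIL2-2 read 12.6 and 22.0 RPKM in DIG1 at 10 d against 13.1 and 10.2 in GFP, which overlap.

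In the glycan cycle, 1 of 6 fell in DIG1 at 4 h and 2 in DIG2. Over all genes, 5.54% and 7.48% fell there, and 31.2% fell at 10 d. The calnexin gene CNX2 (AT5G07340) read 19.8 and 22.6 RPKM in GFP, 15.2 and 13.8 in DIG1 and 10.9 and 13.4 in DIG2. It fell by 0.53 and 0.78 (limma adjusted p = 0.033 and 0.0043). EBS1, the glucosyltransferase that returns misfolded glycoproteins to the lectins, fell by 0.38 in DIG2 (limma adjusted p = 0.047). At 10 d, 2 of 6 fell by limma on RPKM and 0 by voom, where the median of all genes was 0.24; these were the glucosidase II subunits RSW3 and PSL4, with falls of −0.35 and −0.33 (limma adjusted p = 0.019 and 0.047). Of 16 measured genes of the Sec61 translocon and the oligosaccharyltransferase, 2 fell in DIG1 and 8 in DIG2 at 4 h, and 6 fell at 10 d. Beside the shares over all genes given above, the 10 d counts of both lists are near the background. The Sec61 gamma family gene AT4G24920 fell in all 3, by 0.55, 0.75 and 0.66 on the log2 scale (limma adjusted p = 0.022, 0.0039 and 0.0049), and the oligosaccharyltransferase subunits DAD1 and DAD2 fell by 0.85 and 0.63 at 10 d (limma adjusted p = 0.0051 and 0.0061). The 1 gene of this list that rose was AT1G78720, annotated as a SecY family gene, which read 0.590 and 0.233 RPKM in GFP and 3.70 and 4.76 in DIG1 at 10 d (limma adjusted p = 0.0014) and also rose in DIG2 (limma adjusted p = 0.047).

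Of 10 measured regulators of the UPR, 1 fell and 0 rose in DIG1 at 4 h, beside 5.54% and 3.01% of all genes. In DIG2, 2 fell and 1 rose, beside 7.48% and 7.37%. The list medians were 0.04 and 0.08. BZIP60, whose mRNA IRE1 splices into its active form, read 27.2 and 27.6 RPKM in GFP, 24.0 and 23.2 in DIG1 and 21.3 and 19.7 in DIG2. It fell by 0.41 in DIG2 (limma adjusted p = 0.018), with −0.21 ± 0.09 in DIG1 (limma adjusted p = 0.22); gene totals of this kind do not show splicing. IRE1A rose by 0.43 in DIG2 (limma adjusted p = 0.017), and the membrane-bound NAC factor gene NAC062 fell by 0.64 in DIG1 and by 0.61 in DIG2 (limma adjusted p = 0.014 and 0.013). At 10 d 6 of 11 rose and 1 fell, beside 31.9% and 31.2% of all genes. Taken in both directions together, the number that passed is near the background. By direction, more rose and fewer fell than these shares, which was not tested. Voom, by which more of all genes rose than fell, gave 7 and 1. BZIP28, a membrane-tethered activator of the BiP genes, read 14.7 and 15.9 RPKM in GFP and 25.2 and 21.7 in DIG1, a log2 change of 0.60 ± 0.12 (limma adjusted p = 0.0085), where BIP2 fell. BZIP17, IRE1A and NAC089 rose by 0.77, 0.75 and 0.74 (limma adjusted p = 0.0023, 0.0062 and 0.0068), and NAC062 fell by 0.68 (limma adjusted p = 0.0090).

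Genes of ER-associated degradation, which exports misfolded proteins for destruction, were called in both directions. Of 13 measured, 0 fell and 1 rose in DIG1 at 4 h, beside 5.54% and 3.01% of all genes. In DIG2, 3 fell and 1 rose, beside 7.48% and 7.37%. At 10 d 3 fell and 4 rose, beside 31.2% and 31.9%. By voom 3 fell and 8 rose at 10 d, where more of all genes rose than fell. UBC32, a ubiquitin-conjugating enzyme of the ER membrane, was the one that rose in each comparison with GFP, by 0.35, 0.44 and 0.41 (limma adjusted p = 0.040, 0.010 and 0.044). DER1, a derlin of the export channel, fell by 0.89 in DIG2 (limma adjusted p = 0.00076) and by 1.39 at 10 d (limma adjusted p = 0.00083), and was higher in DIG1 than in DIG2 by 0.60 ± 0.11 (limma adjusted p = 0.021). At 10 d the lectin gene OS9 and the mannosidase gene MNS4 fell by 0.54 and 0.59 (limma adjusted p = 0.013 and 0.020). The ubiquitin ligase gene HRD1B and the ATPase gene CDC48 rose by 1.17 and 0.82 (limma adjusted p = 0.00061 and 0.0018), and the ligase gene CER9 rose by 0.47 (limma adjusted p = 0.0065).

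The HSP70 and HSP90 genes of the cytosol, plastids and mitochondria serve as a set of relatives from other compartments. At 4 h, 0 of 15 passed in DIG1 by limma, with 1 of 15 at an unadjusted p under 0.05 (22.1% of all genes) and 2 of 15 higher by voom on the recovered reads. In DIG2 1 of 15 fell, beside 7.48% of all genes. This was AT3G09440, by 0.62 on the log2 scale (limma adjusted p = 0.033). The list medians were 0.01 and −0.26. At 10 d 7 of 15 rose and 1 fell, with a median of 0.40, beside 31.9% and 31.2% of all genes. By voom 12 rose and 1 fell, with a median of 0.62, where more of all genes rose than fell. HSP90.6 read 46.1 and 43.8 RPKM in GFP and 118.3 and 147.5 in DIG1, and rose by 1.55 (limma adjusted p = 0.00067), where SHD, the HSP90 of the ER, stood at 0.07. HSP90.1, HSP70 (AT3G12580) and HSP90.5 rose by 1.44, 1.09 and 0.91 (limma adjusted p = 0.011, 0.0055 and 0.0051), and AT3G09440 fell by 0.59 (limma adjusted p = 0.012).

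The genes whose levels most resembled the mean profile of the 9 chaperones were sought among 12061 genes with at least 5 RPKM in both tables, over the 10 libraries centred within each table. The nearest was RSW10, with a Pearson r of 0.993, followed by AT3G62120 at 0.973, the disulfide isomerase gene PDIL2-3 at 0.969, IRX14 at 0.963, LIL3:1 at 0.962 and RPT4A at 0.957. PDIL2-3 had smaller changes than the chaperones themselves, with −0.24 ± 0.11 in DIG1, −0.34 ± 0.11 in DIG2 and −0.19 ± 0.14 at 10 d, none of which passed (limma adjusted p = 0.24, 0.069 and 0.29). These likenesses describe 10 libraries in 5 groups and carry no test.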

How the data were processed

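The study measured polyA RNA from whole seedlings with a stranded mRNA library kit on an Illumina instrument, per the labels' protocols. The authors deposited 1 table per experiment with RPKM values per gene and library, per the file headers, which also name the authors' log2 fold change and FDR (an adjusted p-value) of each line against GFP. The submitters' processing notes name HTSeq 0.5.4, edgeR 3.6.2 and the build TAIR10; the aligner and the treatment of reads that match several genes are not given in the sources used here. In each table the first GFP column follows the gene identifier after a space, and it was read as a column of its own.

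The 10 members and all gene lists were chosen with earlier results of these data known, so their counts describe them and are set beside the counts over all genes. Tests used limma 3.58.1 (R 4.3.3) on log2(RPKM + 0.5), a scale that understates changes of low genes. Variances were moderated by empirical Bayes with a mean-level trend. Tests were two-sided, with Benjamini-Hochberg adjustment over every gene of a table and a threshold of 0.05. The 4 h comparisons used all 6 libraries and the 10 d comparison its 4. The script was tested on simulated data. From each list of other genes at most 4 per direction and comparison are named, those that passed with separate libraries and the largest change. The values of PDIL2-2 at 10 d and of BZIP60 in DIG1, and the element search, were added after values were seen. Whole reads were recovered from the steps between RPKM values for 100% of genes, within 0.001 read, and used for depth and for 1 alternative, limma voom. All but 44 genes at 4 h and 199 at 10 d reached 2 CPM in at least 2 libraries. Precision is limited by 2 libraries a group. Element matches and transcript likeness were computed from TAIR10.1. The tables carry no coordinates.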

Additional observations from a re-analysis of the deposited data

Results flagged for a closer look

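Of the named genes, 2 had libraries that moved in opposite directions at the stages compared, DIG1 against GFP. HRD1B, a ubiquitin ligase of ER-associated degradation, was lower than GFP in both DIG1 libraries at 4 h (log2 change −0.22, limma adjusted p = 0.32) and higher in both at 10 d (1.17, limma adjusted p = 0.00061). SDF2, a partner of the BiP cochaperone ERDJ3B, was lower in both at 4 h (−0.44, limma adjusted p = 0.12) and higher in both at 10 d (0.37, limma adjusted p = 0.045). The difference between the stages was not tested, since the tables were normalized separately and age, light and dose differ as well.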

How the results depend on the processing

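Over 396 values of single chaperone genes under alternatives (pseudocounts of 0.1 and 1, a mean of at least 1 RPKM, no variance trend, centring on the median, the replicate block, voom, and each library left out), 344 kept their direction and their side of the threshold, 30 lost a call, 15 gained one and 7 changed sign; the causes were not tested. Without a variance trend the chaperone calls at 4 h were 3 in DIG1 and 6 in DIG2, and all genes called numbered 1695 in DIG2 and 149 between DIG1 and DIG2, against 2581 and 410. Leaving out 1 library gave 0 to 5 chaperone calls in DIG1 and 6 to 9 in DIG2 at 4 h, 0 to 3 between DIG1 and DIG2, and 1 to 8 at 10 d; all genes called ranged from 476 to 817, 915 to 2012, 123 to 250 and 8089 to 9509. Voom, added after seeing the data, which changes the test and scales to total reads, gave 5 calls between DIG1 and DIG2, with 709 genes called in all. Signs changed between DIG1 and DIG2 without DIG2 replicate 1, where single libraries left out gave log2 ranges of −0.0029 to 0.19 for PDIL2-1, −0.17 to 0.42 for CRT1A and −0.017 to 0.46 for CRT1B. At 10 d the ranges were −0.26 (without DIG1 replicate 2; −0.02 without GFP replicate 2) to 0.40 for SHD and −0.45 to 0.29 (without DIG1 replicate 1) for CRT1A, which was at 0.11 by voom, where the median of all genes was 0.24. Same-numbered replicates did not deviate together (correlations of −0.00882 to 0.163), so the numbers were not used to pair; with the replicate block 5, 9, 0 and 4 chaperone genes passed, the added one being CRT1B at 10 d (limma adjusted p = 0.036). A count test with edgeR on recovered reads was listed and not run, because the deposited values are RPKM. Each measured chaperone gene had 246 reads or more in every library, and 2 libraries a group limit every test.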
